A study of Mus musculus with 8 samples.

Results

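The serine synthesis and one-carbon genes are 10 genes of serine, folate and asparagine metabolism, chosen by name: Phgdh, Psat1, Psph, Shmt1, Shmt2, Mthfd1, Mthfd2, Mthfd1l, Asns and Aldh1l2. All 10 were found by symbol among the 39179 genes of the deposited count table, and all 10 passed the filter on low counts. RNA was sequenced from 5 adenomas, benign epithelial tumours of the small intestine, and from 3 samples of wild-type small intestine. The adenoma mice had the genotype VilCreER+ APCfl/+, with 1 floxed and 1 normal allele of Apc, which restrains Wnt signalling, and the series describes them as aged. The wild-type mice were VilCreER+ with no floxed Apc, and no age is given for them. Both groups carried VilCreER, a Cre recombinase that the villin promoter confines to intestinal epithelium and that tamoxifen switches on, both had received tamoxifen, and both were on a C57BL6/J background. The labels do not say whether each library came from a separate mouse, so p-values measure the spread between these samples only.

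Cells make serine from the glycolytic intermediate 3-phosphoglycerate in a short chain of steps and then pass a carbon of serine to the vitamin carrier folate. The folate cycle runs in parallel in cytosol and mitochondria with separate enzymes, and it supplies carbon for purines, thymidylate and methionine. Proliferating tissue, including intestinal crypts and tumours, is known for drawing on this pathway, and the transcription factor ATF4 switches on many of its genes when amino acids run short.

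Levels are given in CPM, counts relative to the TMM-scaled library size, and changes as log2 fold changes of adenoma over wild type ± SE from edgeR's quasi-likelihood test with Benjamini-Hochberg adjustment over 18345 genes at 0.05. Total counts ran from 19761919 to 28343915 in adenomas and from 18040301 to 20029231 in wild type. The 10 genes had 59 to 2497 counts per library, with the fewest in Aldh1l2 (59 to 151 counts), Psph (120 to 334) and Phgdh (93 to 482).

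Several libraries stood apart. Apc itself stood at 149.5, 153, 137, 132 and 159 CPM in adenomas 1 to 5, against 196, 191 and 211 CPM in wild type 1 to 3, a log2 fold change of -0.45 (adjusted p = 0.00374), and its counts do not measure recombination. In adenoma 2 the distal-gut homeobox gene Hoxb13 reached 245.5 CPM, against at most 0.894 CPM elsewhere, and the library held 148 CPM of 11 enterocyte markers in sum, against 7396 to 14462 CPM in the other adenomas and 25755 to 40133 CPM in wild type. Pancreatic acinar markers, 11 genes, summed to 923.5 CPM in adenoma 5 and 1217 CPM in wild type 1, and to no more than 150.4 CPM elsewhere. Adenomas 2 to 5 had a female pattern of Xist and Ddx3y, while adenoma 1 and all wild types had a male one, so sex and group are partly confounded. Pan-epithelial markers, 11 genes, summed to 5813 to 10112 CPM in adenomas and 6136 to 6919 CPM in wild type. Among them Epcam had 1031 to 1843 CPM in adenomas and 930.4 to 1129 CPM in wild type. Of the 11, 7 were called higher and 1, Vil1, lower, where 30.3% of all genes tested were called higher and 27.8% lower. Fibroblast markers were higher in adenomas for 7 of 8 genes, summing to 2767 to 3480 CPM against 1135 to 1499 CPM in wild type. Endothelial markers were called higher for 3 of 4 genes, with sums of 116.4 to 202.3 CPM in adenomas and 112.5 to 128.3 CPM in wild type. Immune markers were called lower for 4 of 9 genes and higher for 1, with sums of 141.5 to 236.3 CPM in adenomas and 271.5 to 369.7 CPM in wild type. Smooth muscle markers were called lower for 2 of 6 genes, with sums of 397.4 to 994.6 CPM in adenomas and 869.2 to 1571 CPM in wild type. The part of any of these cell types in the results was not tested. In whole tissue, fewer cells of a type and less RNA per cell cannot be told apart.

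Adenomas were called higher for 4 of the 10 genes and lower for 0. The 4 were Phgdh and Psph of the serine chain, the mitochondrial folate enzyme Mthfd1l and the asparagine synthetase Asns. Over all genes tested 30.3% were called higher, 27.8% lower and 58.1% in either direction, so 4 calls of 10, or 40%, are near that background. Of the 10 genes, 3 were higher in every adenoma than in every wild type, where 29.3% of all genes tested did so and 56.9% did not overlap in either direction. The median log2 fold change of the 10 was 0.43, against 0.04 for all genes tested. At an unadjusted p below 0.05 the count was 5 higher and 0 lower, and DESeq2 and limma-voom also called 0 lower. The count of higher calls was 2 without wild type 3, without adenoma 3, 4 or 5, and without wild type 1 and adenoma 5 together, and 5 without wild type 2 or adenoma 2. It was 6 under total-count scaling, which added Aldh1l2 and Shmt1. Scaling to equal sums of 11 pan-epithelial markers shifted the median of all genes to -0.31, with 23.9% of its calls higher in place of 52.2%, and left 1 call, Mthfd1l. Of these 11 markers, 7 were themselves called higher in adenomas in the main fit and 1 lower. Under that scaling all 10 genes moved down with the median, and Psat1, Shmt1, Mthfd1 and Mthfd2 came out below 0. With the sex pattern as a covariate, Mthfd1l (1.504, adjusted p = 0.00749) and Psph (0.80, adjusted p = 0.0197) were still called and Shmt1 (0.41, adjusted p = 0.0458) was called in addition, whereas Phgdh (0.49, adjusted p = 0.376) and Asns (1.01, adjusted p = 0.171) were not; a comparison within males has 1 adenoma, and no wild type was female.

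**Figure D1:**
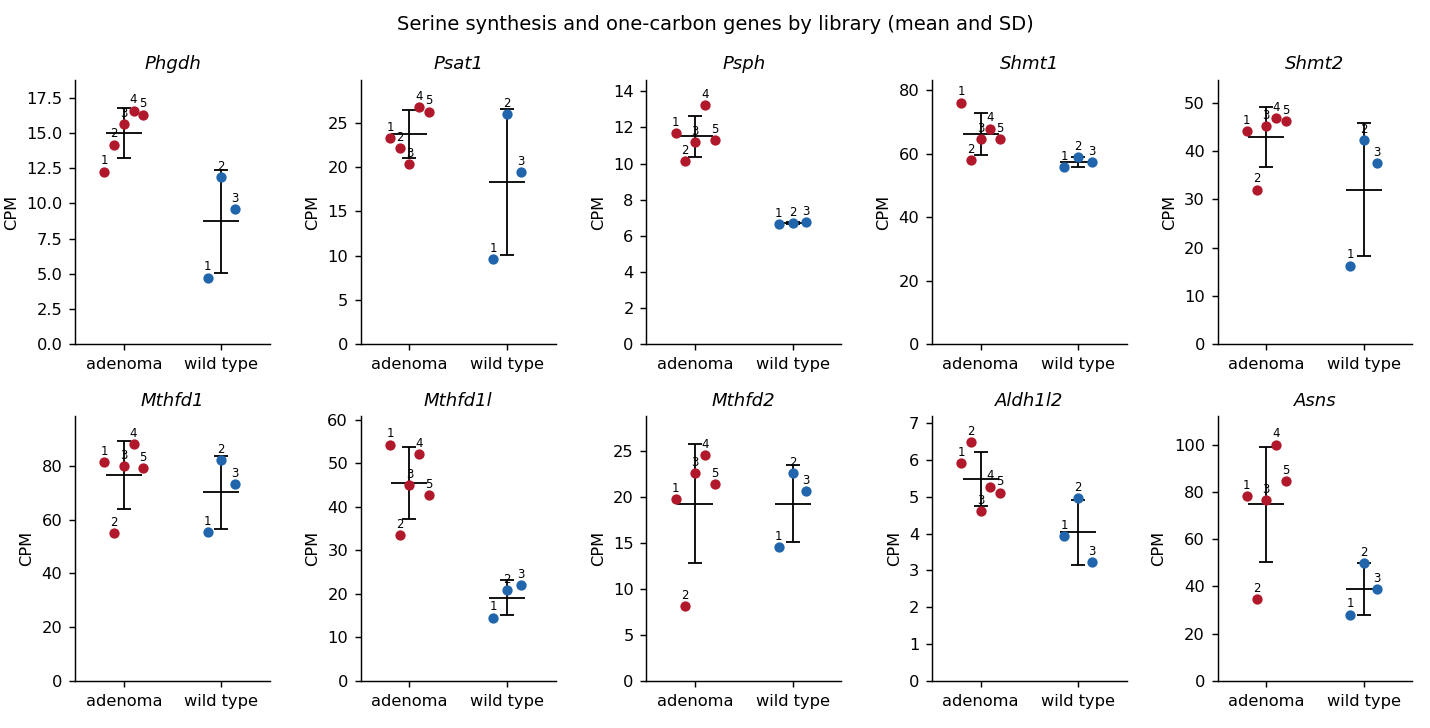
CPM of the 10 genes in each library, with adenomas (red) left and wild types (blue) right in each panel. Points are libraries labelled by replicate number, and black bars give the mean and SD of 5 adenomas and 3 wild types. Psph, Mthfd1l and Phgdh show no overlap, and wild type 1 is the lowest wild type in 9 of 10 panels.

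The chain that makes serine begins with Phgdh (ENSMUSG00000053398, GRCm38 chromosome 3, 98313170 to 98339990, minus strand), the dehydrogenase that commits 3-phosphoglycerate to serine. Phgdh had 12.26, 14.2, 15.6, 16.6 and 16.3 CPM in adenomas 1 to 5, against 4.74, 11.9 and 9.60 CPM in wild type 1 to 3. Every adenoma lay above every wild type, though adenoma 1 exceeded wild type 2 by little and wild type 1 stood well below the other wild types. Phgdh had a log2 fold change of 0.78 ± 0.265 (adjusted p = 0.0315). Without wild type 1 it was 0.49 (adjusted p = 0.0379), and the adjusted p passed 0.05 without wild type 3 (0.0638), adenoma 3 (0.0568), adenoma 4 (0.0634) or adenoma 5 (0.0613). Of the 10 genes Phgdh is the one with many near-identical copies: 54.1% of the 36-base windows of its annotated transcripts, the read length used here, also occur in transcripts of 24 other genes, among them processed pseudogenes. One of these copies, the processed pseudogene Gm5847 (chromosome 3, 65613589 to 65615183), received more counts than Phgdh, at 20.8, 24.5, 22.5, 27.97 and 23.15 CPM in adenomas 1 to 5, against 6.925, 15.5 and 14.1 CPM in wild type 1 to 3. Its log2 fold change was 0.97 ± 0.24 (adjusted p = 0.00871), and how reads were shared between Gm5847 and Phgdh was not tested, so the level of Phgdh is uncertain. Summed with the 9 copies listed in the table, Phgdh reached 33.3 to 44.7 CPM in adenomas and 11.8 to 27.6 CPM in wild type.

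The aminotransferase Psat1 (ENSMUSG00000024640, chromosome 19, 15904678 to 15947337, minus strand), which takes the amino group from glutamate, was not called. Psat1 had 23.2, 22.1, 20.3, 26.8 and 26.2 CPM in adenomas 1 to 5, against 9.57, 25.9 and 19.4 CPM in wild type 1 to 3. Wild type 2 lay within the adenoma range and wild type 1 far below it. Its log2 fold change was 0.38 ± 0.27, with a 95% interval of -0.25 to 1.00 (adjusted p = 0.263), and without wild type 1 it was 0.07 (adjusted p = 0.715).

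Psph (ENSMUSG00000029446, chromosome 5, 129765558 to 129787449, minus strand), the phosphatase of the last step, rose with the smallest standard error of the 4 genes called. Psph had 11.7, 10.1, 11.2, 13.2 and 11.3 CPM in adenomas 1 to 5, against 6.67, 6.69 and 6.77 CPM in wild type 1 to 3. The wild types were almost equal, and the lowest adenoma, adenoma 2, stood well above them. The log2 fold change was 0.78 ± 0.12 (adjusted p = 0.000746), and it was 0.78 (adjusted p = 0.0037) without wild type 1. The call was lost only under scaling by pan-epithelial markers, at 0.41 (adjusted p = 0.174). Psph shares 452 exonic bases with Cct6a, a chaperonin gene on the opposite strand that also rose, at 184 ± 18.4 CPM in adenoma and 108 ± 15.5 CPM in wild type (SD, n = 5 and 3). The library kit does not keep strand, and the part of Cct6a reads in the Psph value was not tested.

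The serine hydroxymethyltransferases Shmt1 and Shmt2 split serine into glycine and a folate-bound carbon, Shmt1 in the cytosol and Shmt2 mainly in mitochondria. Shmt1 (ENSMUSG00000020534, chromosome 11, 60788104 to 60811718, minus strand) had 76.1, 57.9, 64.6, 67.9 and 64.7 CPM in adenomas 1 to 5, against 55.7, 59.02 and 57.3 CPM in wild type 1 to 3. Adenoma 2 lay within the wild-type range and the other adenomas above it. The log2 fold change was 0.21 ± 0.10 (95% interval -0.01 to 0.42, adjusted p = 0.0876), and without adenoma 2 it was 0.25 and called (adjusted p = 0.0211). Shmt1 was also called with the sex covariate and under total-count scaling (0.287, adjusted p = 0.0185). Shmt2 (ENSMUSG00000025403, chromosome 10, 127517123 to 127522444, minus strand) had 44.1, 32.02, 45.2, 46.9 and 46.3 CPM in adenomas 1 to 5, against 16.3, 42.3 and 37.4 CPM in wild type 1 to 3. The groups overlapped, with adenoma 2 below wild type 2 and 3, and wild type 1 the lowest of all 8 libraries. Its log2 fold change of 0.42 ± 0.28 (95% interval -0.22 to 1.07, adjusted p = 0.229) was 0.11 without wild type 1 (adjusted p = 0.578).

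Mthfd1l (ENSMUSG00000040675, chromosome 10, 3973118 to 4167081, plus strand) had the largest change of the 10 genes. It encodes the mitochondrial synthetase that releases formate, the form in which the carbon leaves the mitochondrion. Mthfd1l had 54.25, 33.5, 44.9, 52.1 and 42.6 CPM in adenomas 1 to 5, against 14.6, 20.8 and 22.04 CPM in wild type 1 to 3. The lowest adenoma, adenoma 2, stood above the highest wild type. The log2 fold change was 1.25 ± 0.20, or 2.38-fold (adjusted p = 8.19e-04), and 1.09 (adjusted p = 0.00351) without wild type 1. Mthfd1l passed the threshold under all 20 alternatives tried, with log2 fold changes of 0.84 to 1.504.

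The other folate enzymes among the 10 genes were not called. The cytosolic Mthfd1 (ENSMUSG00000021048, chromosome 12, 76255298 to 76319803, plus strand), a single protein with dehydrogenase, cyclohydrolase and synthetase activities, had 81.5, 54.98, 79.8, 88.1 and 78.97 CPM in adenomas 1 to 5, against 55.4, 82.04 and 73.1 CPM in wild type 1 to 3. The groups overlapped fully, with adenoma 2 and wild type 1 equally low, and the log2 fold change was 0.13 ± 0.17 (95% interval -0.26 to 0.52, adjusted p = 0.544), or -0.01 without wild type 1. Mthfd2 (ENSMUSG00000005667, chromosome 6, 83305691 to 83325908, minus strand), the mitochondrial dehydrogenase and cyclohydrolase known for high levels in embryos and tumours, had 19.7, 8.12, 22.5, 24.5 and 21.4 CPM in adenomas 1 to 5, against 14.5, 22.5 and 20.6 CPM in wild type 1 to 3. Adenoma 2 was the lowest library and the other adenomas lay around the wild types. The log2 fold change of Mthfd2 was 0.003 ± 0.33, with a 95% interval of -0.74 to 0.75 (adjusted p = 0.994), and without adenoma 2 it was 0.19 (adjusted p = 0.282). A log2 fold change of 1 lies outside that interval, and the sign changed under 13 of 20 alternatives, among them leaving out wild type 1 (-0.16). Mthfd2l, the related mitochondrial enzyme found in adult tissues, rose and was less abundant, with 8.27 ± 0.651 CPM in adenoma and 4.69 ± 0.302 CPM in wild type and a log2 fold change of 0.82 ± 0.13 (adjusted p = 8.81e-04).

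Aldh1l2 (ENSMUSG00000020256, chromosome 10, 83487450 to 83534140, minus strand) encodes the mitochondrial dehydrogenase that oxidises the folate-bound carbon to carbon dioxide. Aldh1l2 had 5.92, 6.48, 4.60, 5.275 and 5.11 CPM in adenomas 1 to 5, against 3.92, 4.96 and 3.22 CPM in wild type 1 to 3. Adenoma 3 lay below wild type 2, and the other adenomas lay above all wild types. The log2 fold change of 0.44 ± 0.19 did not pass the threshold (adjusted p = 0.0756) but did without wild type 2, at 0.625 (adjusted p = 0.0373), and under total-count scaling. The gene shares 1056 exonic bases with D10Wsu102e on the opposite strand, a more abundant gene that also rose. D10Wsu102e had 50.5 ± 4.785 CPM in adenoma and 27.4 ± 2.51 CPM in wild type (SD, n = 5 and 3). Its log2 fold change was 0.88 ± 0.11 (adjusted p = 2.35e-04), and its part in the Aldh1l2 counts was not tested.

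Asns (ENSMUSG00000029752, chromosome 6, 7675169 to 7693254, minus strand) makes asparagine from aspartate and glutamine and is a classic gene of the amino acid response. Asns had 78.3, 34.46, 76.4, 100 and 84.5 CPM in adenomas 1 to 5, against 28.01, 49.8 and 38.8 CPM in wild type 1 to 3. Adenoma 2 lay among the wild types, and the other adenomas stood above all of them. Asns had a log2 fold change of 0.94 ± 0.33 (adjusted p = 0.0388), and without adenoma 2 it was 1.12 (adjusted p = 0.00105). Its call did not survive leaving out wild type 1 (adjusted p = 0.132), wild type 3 (0.0991), adenoma 1 (0.0692), adenoma 3 (0.0649), adenoma 4 (0.0762) or adenoma 5 (0.0727).

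**Figure D2:**
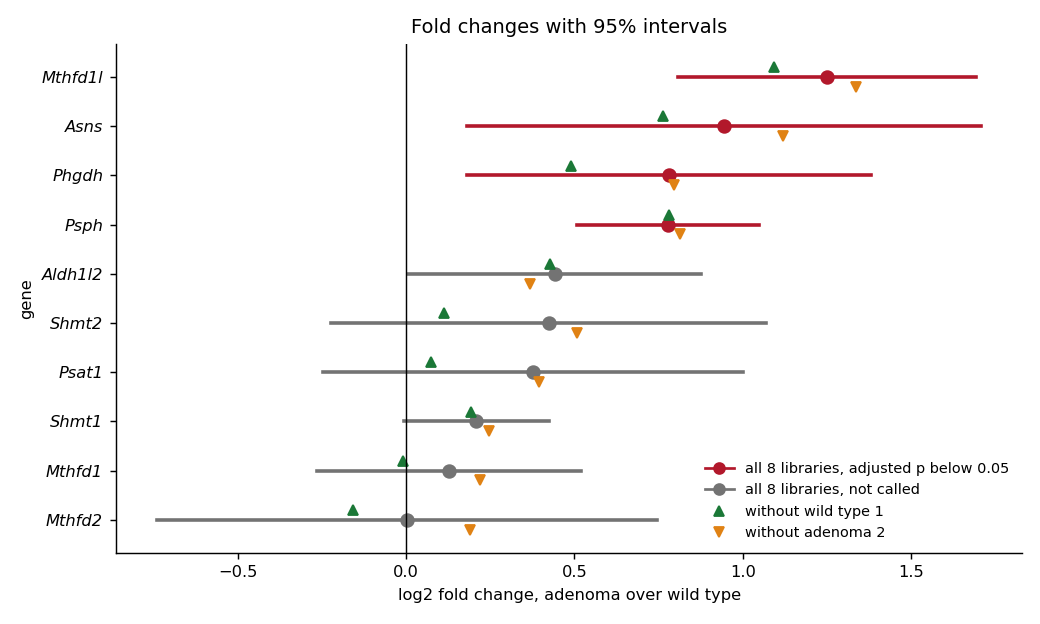
Log2 fold changes of the 10 genes (x axis, adenoma over wild type) with 95% intervals, red where the adjusted p was below 0.05 and grey elsewhere. Triangles give the value without wild type 1 (green, up) or without adenoma 2 (orange, down): leaving out wild type 1 brought Shmt2 to 0.11 and Psat1 to 0.07, while Psph was at 0.78.

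The sequence just upstream of Asns is shown because the amino acid response acts on it through known elements, and that of Mthfd1l because this gene changed most. Windows of 250 bases before to 50 after the gene start were taken from RefSeq on GRCm38.p6 and searched on both strands for the core of the C/EBP-ATF response element, TGATGNAA, for GTTACA, the other nutrient-sensing element described in the human gene, and for the E-box CACGTG, which Myc binds. Capitals mark matches, and none of these motifs overlap. The Asns window lies at chr6:7693160-7693459 on the minus strand and the Mthfd1l window at chr10:3972825-3973124 on the plus strand.
Asns: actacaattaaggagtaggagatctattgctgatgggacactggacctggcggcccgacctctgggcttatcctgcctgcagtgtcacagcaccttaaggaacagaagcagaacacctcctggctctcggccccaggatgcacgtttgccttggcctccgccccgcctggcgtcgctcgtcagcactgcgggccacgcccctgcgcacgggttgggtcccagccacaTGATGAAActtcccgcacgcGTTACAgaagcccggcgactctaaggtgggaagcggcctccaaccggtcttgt
Mthfd1l: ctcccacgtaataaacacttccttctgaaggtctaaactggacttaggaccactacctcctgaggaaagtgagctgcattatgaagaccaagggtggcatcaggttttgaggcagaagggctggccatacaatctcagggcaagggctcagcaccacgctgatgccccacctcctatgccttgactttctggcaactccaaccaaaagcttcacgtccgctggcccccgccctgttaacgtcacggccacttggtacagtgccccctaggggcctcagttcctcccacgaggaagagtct
The Asns window held TGATGAAA, beginning 23 bases before the start, and GTTACA, beginning 3 bases before it. These were the only matches in 10 windows of 9 of the genes, with 2 windows for Psat1. No window was available for Aldh1l2, so it was not searched. Of 32851 windows of the same length, 3.97% held TGATGNAA, 8.25% held GTTACA and 7.15% held CACGTG. A match is a description of letters, and a window without one says nothing about which factor acts on the gene.

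Mitochondrial and cytosolic enzymes were compared within each library as log2 ratios of counts, in which library scaling largely cancels. Across 4 pairs, exact two-sided permutation tests were adjusted by Benjamini-Hochberg, and 5 against 3 libraries cannot give a p below 0.0357. Mthfd1l over Mthfd1 stood at -0.755 ± 0.12 in adenomas and -1.87 ± 0.13 in wild types (SD, n = 5 and 3), a difference of 1.12 with no overlap (exact p = 0.0357, adjusted p = 0.0714). Aldh1l2 over Aldh1l1, the abundant cytosolic counterpart, stood at -4.41 ± 0.20 in adenomas and -5.17 ± 0.16 in wild types (SD, n = 5 and 3), a difference of 0.75 with no overlap (exact p = 0.0357, adjusted p = 0.0714). Both pairs thus reached the smallest p the design allows and did not pass after adjustment. The exonic overlap of Aldh1l2 with D10Wsu102e, which also rose, applies to the second pair, and its part there was not tested. Aldh1l1 itself was at 120.1 ± 28.9 CPM in adenoma and 147 ± 19.8 CPM in wild type (adjusted p = 0.209). Shmt2 over Shmt1 differed by 0.32 (exact p = 0.536) and Mthfd2 over Mthfd1 by -0.20 (exact p = 0.5), and both overlapped. Wild type 1 alone was low in Shmt2 over Shmt1, at -1.77 against -0.48 and -0.61 in the other wild types, and without it the difference was -0.09. Adenoma 2 alone was low in Mthfd2 over Mthfd1, at -2.745 against -2.04 to -1.82 in the other adenomas, and without it the difference was -0.03.

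**Figure D3:**
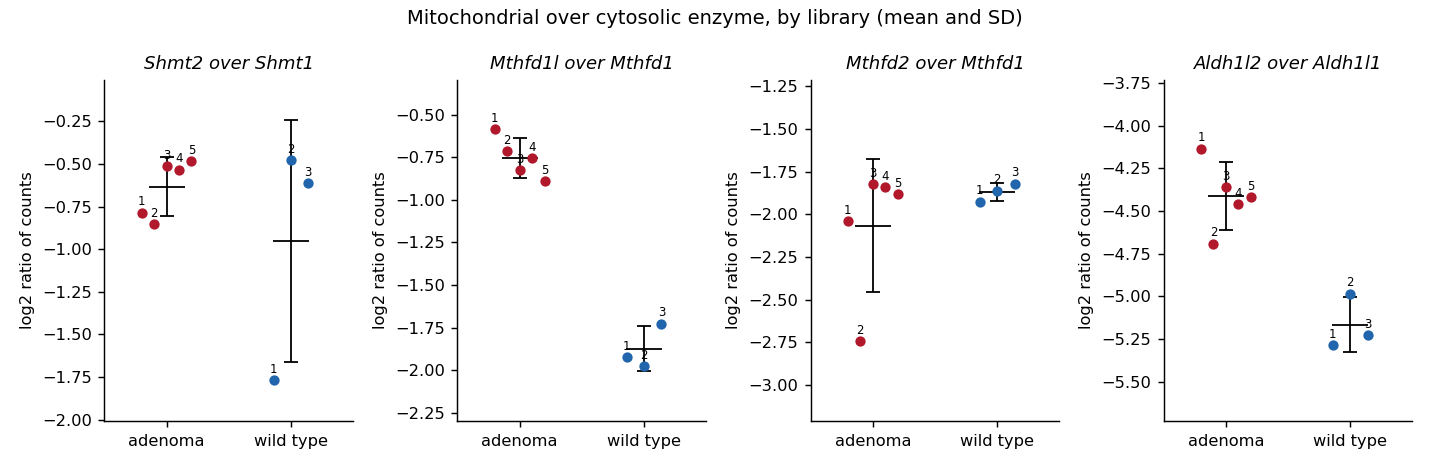
Log2 ratio of counts of a mitochondrial enzyme to a cytosolic one in each library (y axes span 2 log2 units in every panel), with adenomas left and wild types right and black bars for mean and SD. Mthfd1l over Mthfd1 and Aldh1l2 over Aldh1l1 separate the groups, while Shmt2 over Shmt1 and Mthfd2 over Mthfd1 overlap.

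Per kilobase of exon, the order of the 10 levels differed most between the groups in Mthfd2, placed 8 in adenomas and 5 in wild types. Its own mean was near equal in both, at 5.52 and 5.51 CPM per kilobase. Mthfd1l, Phgdh and Psat1 stood above it by mean in adenomas and below it in wild types. In adenomas Asns led at 27.3 CPM per kilobase, followed by Mthfd1 (17.3), Shmt1 (17.1), Shmt2 (13.8), Mthfd1l (10.25), Phgdh (6.03), Psat1 (5.58), Mthfd2 (5.52), Psph (2.66) and Aldh1l2 (0.730). Of these neighbours, Mthfd1l and Phgdh, and Psph and Aldh1l2, did not overlap, and all others did. In wild types the order was Mthfd1 (15.8), Shmt1 (14.8), Asns (14.2), Shmt2 (10.3), Mthfd2 (5.51), Mthfd1l (4.31), Psat1 (4.30), Phgdh (3.51), Psph (1.55) and Aldh1l2 (0.538), where only Psph stood apart from both its neighbours. These levels divide by the union of annotated exons, and that of Phgdh is uncertain for the shared windows given above.

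The libraries that were lowest for the 10 genes were also lowest for proliferation markers. Wild type 1 was the lowest wild type for 9 of 10 genes and for 16 of 16 proliferation markers, against 39.9% of all genes tested. Among the 9, the wild types differed little in Psph, at 6.67 to 6.77 CPM, and in Shmt1, at 55.7 to 59.02 CPM. Adenoma 2 was the lowest adenoma for 7 of 10 genes and again for 16 of 16 proliferation markers, against 36.4% of all genes tested. The pattern is not particular to proliferation markers. Wild type 1 was lowest for 18 of 20 cytosolic aminoacyl-tRNA synthetases and 11 of 13 purine synthesis genes, and adenoma 2 for 17 and 9 of them. In the ATF4 list these counts were 4 and 8 of 17. Proliferation markers summed to 1456, 979.8, 1462, 1617 and 1396 CPM in adenomas 1 to 5, against 933.4, 1392 and 1280 CPM in wild type 1 to 3. Of the 16, 5 were called higher (31.2%) and 1 lower (6.25%), against 30.3% and 27.8% of all genes tested. The lower gene was Mki67, at 211 ± 25.15 CPM in adenoma and 323 ± 60.5 CPM in wild type (SD, n = 5 and 3, adjusted p = 0.00861). The 10 genes summed to 407, 273.9, 385, 441.5 and 397 CPM in adenomas 1 to 5, against 209.4, 325.9 and 288 CPM in wild type 1 to 3. Wild type 1 was also the library with the highest sum of pancreatic acinar markers. The part of any of these in the 10 genes was not tested, and the plot of fold changes shows each gene also without wild type 1 and without adenoma 2.

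**Figure D4:**
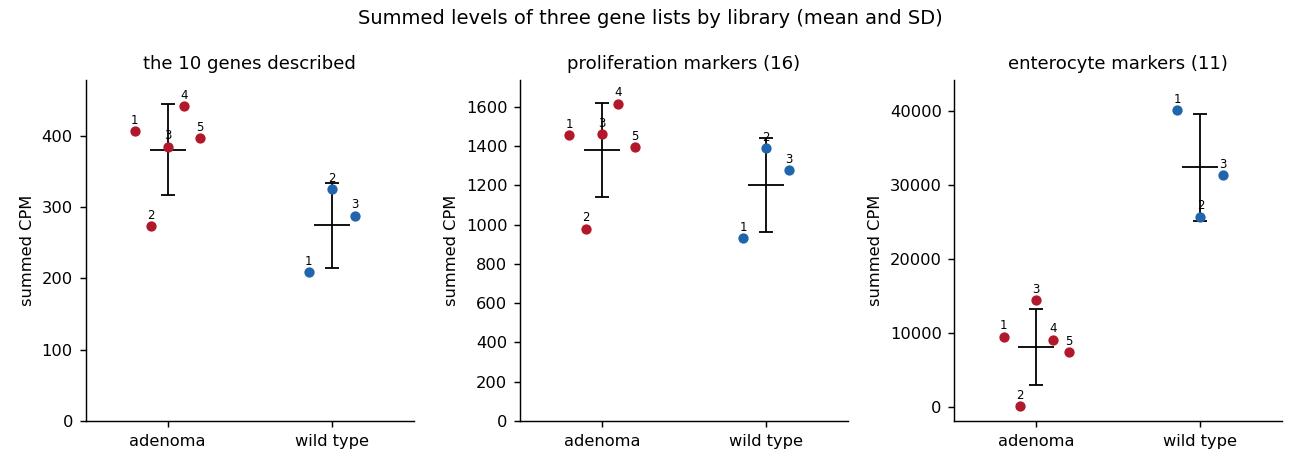
Summed CPM of the 10 genes, of 16 proliferation markers and of 11 enterocyte markers in each library, with adenomas left, wild types right and black bars for mean and SD. Wild type 1 and adenoma 2 are the lowest of their groups in the first 2 panels, and adenoma 2 is close to 0 for enterocyte markers.

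By profile over the 8 libraries, the genes closest to Mthfd1l were Cep72, Uck2 and Ergic1, with root mean square differences in centred log2 CPM of 0.09, 0.10 and 0.12. Uck2, a kinase that salvages uridine and cytidine, had 78.8 ± 12.6 CPM in adenoma and 31.9 ± 5.94 CPM in wild type (SD, n = 5 and 3). Cep72, a centrosome protein, had 19.5 ± 2.75 and Ergic1, a membrane protein of the early secretory pathway, 152 ± 29.4 CPM in adenoma, against 7.745 ± 1.15 and 61.1 ± 8.26 CPM in wild type.

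Other genes of the folate cycle went both ways. Adenomas had more of 5 (33.3%) and less of 3 (20%) among 15 tested, and the median log2 fold change was 0.22. Beside this list and those that follow, 30.3% of all genes tested were called higher and 27.8% lower. Under scaling by pan-epithelial markers the higher counts of the lists that follow shrank, to 1 for the folate cycle, 2 for glycine cleavage, 2 for the methionine cycle, 5 for purines, 1 for pyrimidines, 3 for the ATF4 response, 4 for transporters and 1 for glutamine and glutamate enzymes. With the sex pattern as a covariate they were, in the same order, 3, 1, 2, 5, 2, 4, 4 and 1, and 9 for the tRNA synthetases. Over all 18345 genes tested, higher calls also fell, from 5558 to 1739 with that scaling and to 3074 with the covariate. Ggh, which trims the glutamate tail of folates, had 121 ± 29.2 CPM in adenoma and 9.23 ± 0.197 CPM in wild type, a log2 fold change of 3.72 ± 0.22 (adjusted p = 1.15e-05). Slc25a32, which carries folate into mitochondria, had 30.97 ± 4.26 CPM in adenoma and 16.7 ± 1.45 CPM in wild type (adjusted p = 6.52e-04). Methionine synthase Mtr fell to 15.1 ± 1.53 CPM in adenoma, against 20.4 ± 1.77 CPM in wild type (adjusted p = 0.00924), while its reductase Mtrr rose to 15.5 ± 2.15 CPM, against 8.93 ± 0.681 CPM in wild type (adjusted p = 0.0015). Neither was called with the sex pattern as a covariate (adjusted p = 0.0561 for Mtr and 0.0796 for Mtrr), nor Mtrr under scaling by pan-epithelial markers (adjusted p = 0.21). The count of lower genes was 1 without wild type 1 or without wild type 3.

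Genes that cleave glycine or break down serine were split, 3 higher and 3 lower of 9 tested, with a median log2 fold change of -0.355. At 33.3% each way, these counts are near the shares of all genes tested. Without adenoma 2 the count of lower genes was 5. Higher were Gldc, Amt and Gcsh, which encode the decarboxylase, aminomethyltransferase and lipoyl carrier of the glycine cleavage system. Amt had 13.3 ± 2.365 CPM in adenoma and 5.44 ± 0.205 CPM in wild type, a log2 fold change of 1.29 ± 0.16 (adjusted p = 2.93e-04). Gldc was rare, at 1.39 ± 0.616 CPM in adenoma and 0.281 ± 0.174 CPM in wild type (adjusted p = 0.00771), and Gcsh was at 37.55 ± 4.88 CPM in adenoma and 28.4 ± 3.14 CPM in wild type (adjusted p = 0.0271). The Gcsh call was lost without wild type 1 or 3 or without adenoma 1, 3, 4 or 5, with adjusted p from 0.0506 to 0.0953. Lower were the serine racemase Srr, at 11.9 ± 1.98 CPM in adenoma and 28.9 ± 0.897 CPM in wild type (adjusted p = 1.32e-04), the glycerate kinase Glyctk (-1.91 ± 0.36, adjusted p = 0.00206) and the D-amino acid oxidase Dao (-2.73 ± 0.81, adjusted p = 0.021). The Dao call was lost when any wild type was left out: adjusted p was 0.0624, 0.0521 and 0.0526 without wild type 1, 2 and 3.

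In the methionine cycle 4 of 11 genes were higher (36.4%) and 3 lower (27.3%), and the median log2 fold change was 0.19. Both counts are near the shares of all genes tested, 30.3% and 27.8%. Without wild type 2 or without wild type 3, 1 gene was lower. Mat2a, which makes S-adenosylmethionine, had 208 ± 16.5 CPM in adenoma and 105.5 ± 8.098 CPM in wild type, a log2 fold change of 0.98 ± 0.11 (adjusted p = 1.27e-04). Cbs, which joins serine to homocysteine, had 10.25 ± 6.89 CPM in adenoma and 1.46 ± 0.367 CPM in wild type (adjusted p = 0.00221), with 22.4 CPM in adenoma 2 alone. Mtap, which salvages methionine, rose to 33.4 ± 1.62 CPM in adenoma, against 18.15 ± 5.41 CPM in wild type (adjusted p = 0.00365). The choline dehydrogenase Chdh fell to 95.7 ± 24.2 CPM in adenoma, against 168 ± 13.95 CPM in wild type (adjusted p = 0.0117). Gnmt, a glycine methyltransferase near 1 CPM, was called (0.71 ± 0.23, adjusted p = 0.0282) but not without any 1 of wild type 1, 2 or 3 or adenoma 1 or 4, at adjusted p from 0.0533 to 0.0831.

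Purine synthesis, which takes carbon from formyl-folate, was higher for 9 of 13 genes (69.2%) and lower for 0, with a median log2 fold change of 0.48. The count of lower genes was also 0 at an unadjusted p below 0.05 and by DESeq2 and limma-voom, and 1 without wild type 1. Paics, an enzyme of the middle of the pathway, had 139 ± 14.96 CPM in adenoma and 37.6 ± 3.11 CPM in wild type, a log2 fold change of 1.88 ± 0.12 (adjusted p = 1.52e-05). Ppat, the entry enzyme, had 46.8 ± 2.45 CPM in adenoma and 20.7 ± 5.38 CPM in wild type (adjusted p = 4.81e-04). Impdh1, on the branch to guanine nucleotides, had 25.4 ± 1.26 CPM in adenoma and 11.1 ± 1.305 CPM in wild type (adjusted p = 5.51e-05), and Adssl1 on the adenine branch was higher by 2.275 ± 0.22 (adjusted p = 8.78e-05). Pyrimidine and deoxynucleotide genes were higher for 3 of 11 (27.3%), near the 30.3% of all genes tested, with a median of 0.37. They were lower for 0, also by DESeq2 and limma-voom. At an unadjusted p below 0.05, 6 were higher and 0 lower. The CTP synthases Ctps (0.92 ± 0.08, adjusted p = 5.05e-05) and Ctps2 (1.04 ± 0.12, adjusted p = 1.91e-04) and the thymidylate kinase Dtymk (0.55 ± 0.13, adjusted p = 0.00645) were the 3 called higher. That count was 5 without wild type 2 and 6 without adenoma 2, and without wild type 1 a count of 2 was lower.

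Genes of the ATF4 amino acid response were higher for 10 of 17 (58.8%) and lower for 2 (11.8%), with a median log2 fold change of 0.65. Atf4 itself was at 149.7 ± 28.7 CPM in adenoma and 146 ± 8.72 CPM in wild type (0.03 ± 0.17, adjusted p = 0.876). Ddit4, an inhibitor of mTORC1, had the smallest adjusted p of the list, with 84.03 ± 14.8 CPM in adenoma and 14.8 ± 1.705 CPM in wild type (2.51 ± 0.16, adjusted p = 1.74e-05). Stc2, a secreted glycoprotein, was higher by 1.61 ± 0.17 (adjusted p = 1.08e-04), the translation repressor gene Eif4ebp1 by 1.275 ± 0.23 (adjusted p = 0.00164) and the mitochondrial carboxykinase gene Pck2 by 0.495 ± 0.09 (adjusted p = 0.00211). Ddit3, which encodes the stress factor CHOP, went the other way, with 7.44 ± 0.955 CPM in adenoma and 14.4 ± 1.698 CPM in wild type (-0.955 ± 0.14, adjusted p = 6.20e-04). Cytosolic aminoacyl-tRNA synthetases were higher for 14 of 20 and lower for 0, also at an unadjusted p below 0.05 and by DESeq2 and limma-voom, with a median of 0.55, although 2 were higher and 1 lower under scaling by pan-epithelial markers. Among them Lars, Gars, Sars and Farsa, which charge leucine, glycine, serine and phenylalanine tRNAs, rose by 0.925, 0.86, 0.74 and 0.55 on the log2 scale (adjusted p from 1.20e-04 to 9.20e-04).

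Transporters of serine, glycine and glutamine divided into 7 higher (46.7%) and 4 lower (26.7%) of 15 tested, with a median log2 fold change of 0.46. Slc6a9, a glycine importer, had 18.75 ± 0.509 CPM in adenoma and 5.38 ± 0.136 CPM in wild type, a log2 fold change of 1.80 ± 0.09 (adjusted p = 7.57e-06). Slc1a4, a serine and alanine exchanger, had 66.7 ± 10.9 CPM in adenoma and 11.7 ± 2.11 CPM in wild type (adjusted p = 2.41e-05). Slc38a4, an amino acid importer, had 374, 20.4, 337, 580.1 and 361 CPM in adenomas 1 to 5, against 1.32, 1.39 and 1.20 CPM in wild type 1 to 3 (adjusted p = 9.30e-04), with adenoma 2 far below the others. Slc7a5, the leucine exchanger, was higher by 1.36 ± 0.25 (adjusted p = 0.00179), and the proton-coupled transporter Slc36a1 had a log2 fold change of -3.03 ± 0.28 (adjusted p = 8.74e-05). Enzymes of glutamine, glutamate and aspartate, the substrates of Psat1 and Asns, were lower for 4 of 10 (40%) and higher for 3 (30%), with a median of -0.645. The transaminase Got1 had 35.04 ± 8.01 CPM in adenoma and 96.9 ± 3.83 CPM in wild type (adjusted p = 3.01e-04). Glutamate dehydrogenase Glud1 (-1.15 ± 0.17, adjusted p = 6.74e-04) and the alanine transaminase Gpt (-1.98 ± 0.59, adjusted p = 0.0216) were lower too, and the Gpt call needed wild type 1 (adjusted p = 0.0678 without it) and wild type 3 (0.0519 without it). Pycr1, which makes proline in mitochondria, was higher by 2.26 ± 0.20 (adjusted p = 5.65e-05).

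**Figure D5:**
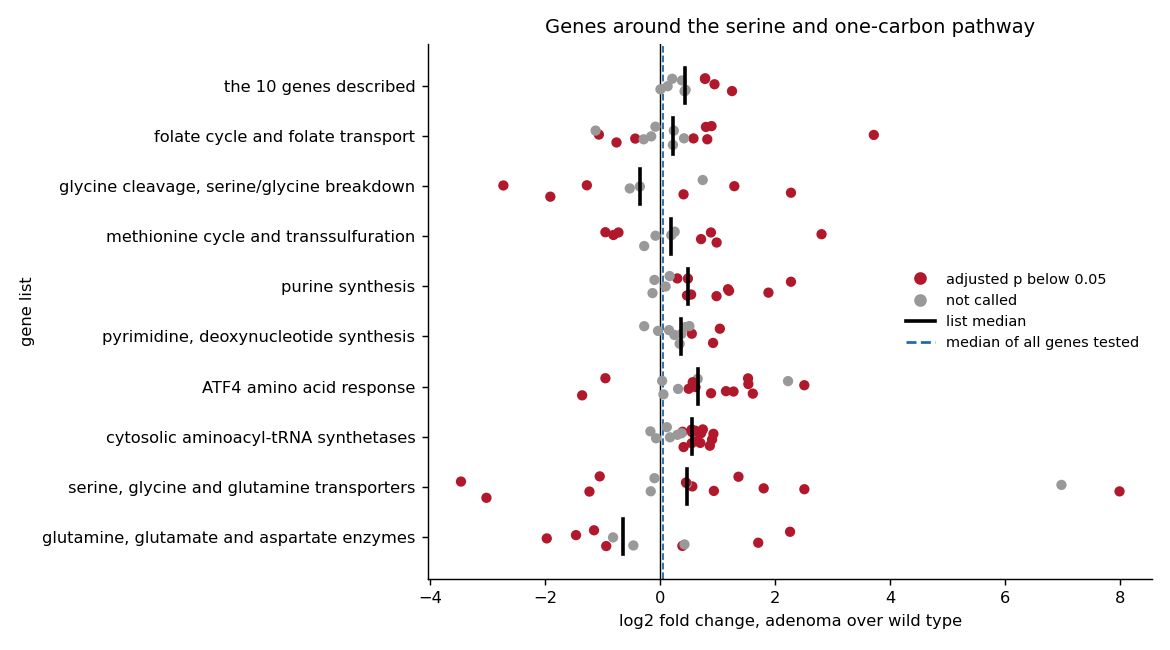
Log2 fold changes (x axis, adenoma over wild type) of the 10 genes and of 9 surrounding gene lists, 1 point per gene tested, red where the adjusted p was below 0.05. Black bars are list medians and the dashed line is the median of all genes tested, 0.04: purine synthesis and the tRNA synthetases lie mostly to its right, whereas glutamine, glutamate and aspartate enzymes have a median of -0.645.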

How the data were processed

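RNA was sequenced from whole tissue of 5 adenomas and 3 wild-type small intestines, per the labels with RNeasy extraction, the unstranded TruSeq RNA v2 kit and paired reads of 36 cycles on a NextSeq, all in 1 lane. The authors deposited raw counts per Ensembl gene. The submitters' processing notes name TopHat2, HTSeq, FastQC and the build GRCm38. Versions, annotation, filters and the strand setting were not stated. Symbols, positions and exon lengths came from GENCODE M21 (GRCm38), and promoters from RefSeq. Short reads of genes with near-identical copies may be discarded or assigned to a copy.

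Counts were fitted with edgeR 4.0.16 (R 4.3.3; filterByExpr, TMM, robust quasi-likelihood), which was tested on simulated data. The pair ratios used a prior count of 2. No pair of libraries in a group differed by as little as sampling noise (chi-square per degree of freedom 20.1 to 149). The members and lists were chosen with earlier results of these data known. Named genes were the 10 members, in each list up to 4 called genes of lowest adjusted p in the majority direction and 1 in the other, or up to 4 each way at a tie, the counterparts Aldh1l1 and Mthfd2l, and the 3 profiles nearest to the most changed member. Other genes and copies were named after their values were seen. A gene that this rule names is not reported here. Alternatives were RLE, upper-quartile, total-count and pan-epithelial scaling, leaving out 4 ribosomal RNA genes, 2 filters, a replicate block, the sex pattern as covariate, DESeq2 1.42.0, limma-voom (limma 3.58.1), and leaving out libraries.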

Additional observations from a re-analysis of the deposited data

Results flagged for a closer look

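Among the 5 adenomas, 57 values were tested for 1 library far from the others, by a rule that flags about 1 in 20 by chance. The values share the same 5 libraries and are not independent, so that rate gives no expected count. In 8 of 57 values a library was flagged, and adenoma 2 was that library each time. It was low in Shmt2 (32.0 CPM against 44.1 to 46.9 CPM in the other adenomas), Mthfd1 (55.0 CPM against 79.0 to 88.1), the log2 ratio of Mthfd2 over Mthfd1 (-2.75 against -2.04 to -1.82), Chdh (52.7 CPM against 103 to 110.4), Dtymk (26.2 CPM against 34.5 to 36.2) and Got1 (21.2 CPM against 35.2 to 40.6). It was high in Cbs (22.4 CPM against 6.21 to 8.77) and Slc36a1 (38.4 CPM against 16 to 21.8). Adenoma 2 is also the library with Hoxb13 and with few enterocyte transcripts, and the part of either in these values was not tested.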

How the results depend on the processing

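Over 20 alternatives, the log2 fold changes of the 10 genes kept direction and side of the threshold in 154 of 200 values; 5 gained the call, 23 lost it and 18 turned to the other sign. Mthfd1l was called in all 20 and Psph in 19, against 11 for Phgdh and 7 for Asns. Of all genes, 10657 were called, 7272 with pan-epithelial scaling, 6549 with a replicate block and 5372 with the sex pattern as covariate. Leaving out 1 library gave 8664 to 12276. Higher calls among the 10 genes, 4, were 6 with total-count scaling, 1 with pan-epithelial scaling, 2 with a filter of 5 CPM in 3 libraries, 2 with the replicate block, 2 without wild type 1 and adenoma 5, and 2 to 5 without 1 library. Calls in the surrounding lists, 77, were 47 with pan-epithelial scaling, 48 with the replicate block and 37 with the sex covariate. With the block, higher calls were 5 in the ATF4 response (10), 4 in purine synthesis (9) and 6 among tRNA synthetases (14), and Mtr lost its call. Pan-epithelial scaling put Psat1 at -0.003, Shmt1 at -0.164, Mthfd1 at -0.278 and Mthfd2 at -0.450. Mthfd1 ran from -0.010 to 0.265 without 1 library and was -0.022 without wild type 1 and adenoma 5. Mthfd2, at 0.003, ran from -0.157 to 0.191 without 1 library and was -0.030 with RLE, -0.089 with upper-quartile scaling, -0.110 with the 5 CPM filter, -0.280 with the replicate block, -0.031 with DESeq2, -0.052 with limma-voom and -0.199 without wild type 1 and adenoma 5. Shmt2 over Shmt1 ran from -0.088 to 0.556 without 1 library and was -0.126 without wild type 1 and adenoma 5. The cause of these moves was not tested. Same-numbered libraries deviated together by correlations of only -0.018, 0.051 and 0.061. Adenoma 1 correlated best with wild type 2 (0.032), while adenomas 2 and 3 correlated best with the wild types of the same number. Correlations this small cannot decide whether the numbers pair samples, and the main fit left them unpaired. With 3 wild types, 1 library can decide a call, and at 59 to 151 counts per library Aldh1l2 is the gene most limited by depth.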
